A study of Mus musculus with 4 samples.

Results

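The CD28 family and the inhibitory checkpoint receptors described here are 9 genes, Ctla4, Cd28, Icos, Pdcd1, Btla, Lag3, Havcr2, Cd200 and Cd274. They were chosen by name among the 19901 genes tested, with earlier results of these data known. The array held 12 probes for them among 41174, and 11 of these passed the filter on dim probes. The tested probe of each gene was well above background in all 26 channels and saturated in 0 of them. RNA came from CD4+ cells of mouse lymph nodes. All groups shared stimulation on plates coated with anti-CD3 at 1 ug/ml for 4 days and a 3-day incubation in IL2 at 100 units/ml, so that IL2 was present in each of the 4 conditions. The conditions were TGFb (4 ng/ml) with IL6 (25 ng/ml) on 4 arrays, TGFb on 3 arrays, IL6 on 3 arrays and IL2 with no further cytokine on 3 arrays. Each of the 13 two-colour arrays paired Treg with T-effector RNA of one condition in opposite dyes. The way in which Treg were parted from T-effector cells, and the culture or animal behind each array, are not given in the sources used here. The p-values therefore measure only how far these arrays spread, and that spread may be technical.

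A T cell reads its antigen receptor together with a second set of surface receptors. CD28 and ICOS add a stimulatory signal, while CTLA-4 competes with CD28 for the ligands CD80 and CD86 and so withholds it. PD-1 (Pdcd1), BTLA, LAG-3 (Lag3) and TIM-3 (Havcr2) dampen the response when they meet ligands on other cells, CD200 does so for cells that carry its receptor, and PD-L1 (Cd274) is a ligand of PD-1. Regulatory T cells are known for high surface CTLA-4 and ICOS, and CTLA-4 is one of the molecules through which they restrain other T cells.

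Several of these genes are neighbours. In the RefSeq annotation of GRCm38.p6, Cd28, Ctla4 and Icos lie in a row on chromosome 1, with 136 kb between Cd28 and Ctla4, 44.9 kb between Ctla4 and Icos and 0 protein-coding genes in either gap. Btla and Cd200 lie 129 kb apart on chromosome 16, again with 0 protein-coding genes between them. Promoter sequences from RefSeq (GRCm38.p6) were matched by symbol for 6 of the 9 genes, and the 250 bases before the listed start are printed for Ctla4, the gene most often higher in Treg, and for Btla and Cd200, the neighbours whose ratios ran together. Capitals mark motif matches on either strand. The Ctla4 window is chr1:60908775-60909024 (+ strand), the Btla window is chr16:45224087-45224336 (+ strand) and the Cd200 window is chr16:45409054-45409303 (- strand). The Btla window lies inside the annotated gene (chr16:45223705-45252895), and the Cd200 window overlaps the outer end of its gene (chr16:45382111-45409060). The listed starts of Btla and Cd200 are therefore not the outermost annotated starts.
Ctla4: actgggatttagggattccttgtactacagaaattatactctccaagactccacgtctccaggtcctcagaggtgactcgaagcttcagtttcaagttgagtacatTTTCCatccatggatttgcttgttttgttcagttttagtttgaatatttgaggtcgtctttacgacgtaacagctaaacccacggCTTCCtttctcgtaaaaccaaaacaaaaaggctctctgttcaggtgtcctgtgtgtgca
Btla: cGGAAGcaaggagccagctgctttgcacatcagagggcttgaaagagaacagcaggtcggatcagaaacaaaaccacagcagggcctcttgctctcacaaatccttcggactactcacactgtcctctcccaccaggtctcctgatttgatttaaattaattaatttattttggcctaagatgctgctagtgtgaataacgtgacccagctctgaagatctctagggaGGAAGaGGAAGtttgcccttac
Cd200: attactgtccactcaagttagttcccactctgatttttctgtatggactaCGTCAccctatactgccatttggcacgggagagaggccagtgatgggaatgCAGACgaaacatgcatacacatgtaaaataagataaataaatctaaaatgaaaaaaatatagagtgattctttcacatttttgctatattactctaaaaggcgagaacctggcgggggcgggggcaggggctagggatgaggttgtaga
The motifs searched were NFAT (GGAAA), forkhead (TGTTTAC), STAT (TTCNNNGAA), AP-1 (TGANTCA), SMAD (CAGAC), Ets (GGAAG) and CREB (TGACG). The Ctla4 window held 1 NFAT match 144 bases and 1 Ets match 59 bases before the start. The Btla window held 3 Ets matches, at 249, 22 and 16 bases. The Cd200 window held a CREB match at 200 bases and a SMAD match at 149 bases. Of all 32851 promoters in the table, 55.6% held the NFAT letters, 64.1% the Ets letters, 42.2% the SMAD letters and 17.8% the CREB letters, so such matches are common, and Btla and Cd200 shared no match. The forkhead, STAT and AP-1 letters, found in 3.17%, 7.02% and 6.75% of promoters, were in none of these 3 windows.

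Markers of the labelled cell types and of other cells were read first. Of 6 CD4 T cell markers, 5 were well above background in all 26 channels and Cd4 itself in 13 Treg channels and 12 T-effector channels. Foxp3, the lineage factor of Treg, was higher in Treg on 13 of 13 arrays, with a log2 ratio of 1.95 to 2.39 over the 4 conditions. The Treg marker Il2ra passed only with TGFb and with TGFb and IL6. Ikzf2 passed with TGFb (0.81), IL6 (3.12) and IL2 (3.23), but not with TGFb and IL6 (0.42, adjusted p = 0.162). Of the CD8 T and NK cell markers, Cd8a, Cd8b1 and Klrd1 were well above background in all 26 channels. Ncr1, Klrb1c and Klre1 were in 2 to 5 of 13 channels of either sample type. Of 9 myeloid and dendritic cell markers, Lyz2, Itgam and Adgre1 were well above background in 0 to 3 of 13 channels of either sample type, while Itgax and Cd68 were in 11 or 12. Of 5 stromal and endothelial markers, Cdh5 was above it in 0 channels, while Pecam1 was in all 26 and Col1a2 in 9 Treg channels and 10 T-effector channels. The summed signals of B cell markers and of CD8 T and NK cell markers differed between groups and are given beside the genes that those cells also express. A pair of features set arrays apart before any result is read. Signal well above background was read for the Y-linked Ddx3y on 11, for Kdm5d on 10, for Uty on 5 and for Eif2s3y on 13 of the 13 arrays in Treg RNA. In T-effector RNA it was read for Eif2s3y on 5 arrays and for the other 3 genes on 0. Xist, another sex-linked gene, was well above background on all 13 arrays in both RNAs, with a log2 ratio of -1.16 to 1.23. Treg and T-effector RNA thus differed in Y-linked signal on most arrays, so their ratio does not compare cell type alone. The part of this difference in the ratios of the 9 genes was not tested. IL6 arrays 1 and 3 lacked Ddx3y, Kdm5d and Uty in Treg RNA, and only Ddx3y was missing on no other array. The IL6 ratios of all members, and the IL6 calls between conditions, are therefore also given without these arrays. This leaves 1 IL6 array that is assumed to vary like the other groups. Both arrays left out lay on slide E and the remaining one on slide A, so slide and Y-linked signal cannot be told apart there. The ratio drifted along the array, most on slide E and also on slides D and C, as described for Cd28. In a mixed RNA sample, fewer cells of a type and less RNA per cell cannot be told apart.

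Set against T-effector samples on the same array, Treg samples had more Ctla4 in each condition, more Icos in 3 of 4 conditions and less Cd28 in 3 of 4 conditions, while Btla and Cd200 were lower in Treg wherever TGFb was present. With TGFb and IL6, 5 of the 9 genes passed the threshold of an adjusted p of 0.05, against 5.84% of all genes. With TGFb 5 passed (5.97% of all genes), with IL6 3 passed (5.84%) and with IL2 2 passed (11.0%). Under a stricter filter on dim probes these shares of all genes were 7.29%, 7.4%, 7.49% and 14% in the same order. The members were chosen with earlier results known and all were well above background. The shares are therefore given for scale and are not a test of the set. Slide B held 2 of the 4 TGFb with IL6 arrays and 1 of the 3 TGFb arrays, and without it fewer of all genes passed in these conditions. With TGFb and IL6, 0 members and 0.784% of all genes then passed. With TGFb, 2 members, Btla and Cd200, and 2.18% of all genes did. The members' median log2 ratio was -0.39 with TGFb and IL6, -0.53 with TGFb, -0.18 with IL6 and -0.11 with IL2, while the median of all genes lay between -0.01 and 0.02. When arrays were centred on their medians instead of by loess, the all-gene median became -0.32 with IL6 and -0.30 with IL2, and that of the ratio differences 0.43 for TGFb against IL2 and 0.32 for TGFb with IL6 against IL6. A sign under that setting is therefore read against these shifts of all genes. Of 144 member results in 16 comparisons, 56 passed, while 0% to 11.0% of all genes passed in each comparison. Of the 56, 27 passed under each single array left out and 54 with slide as a block. Without slide B 32 of the 56 still passed, and without slide E 35, in fits with 3 and 4 fewer arrays.

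**Figure D1:**
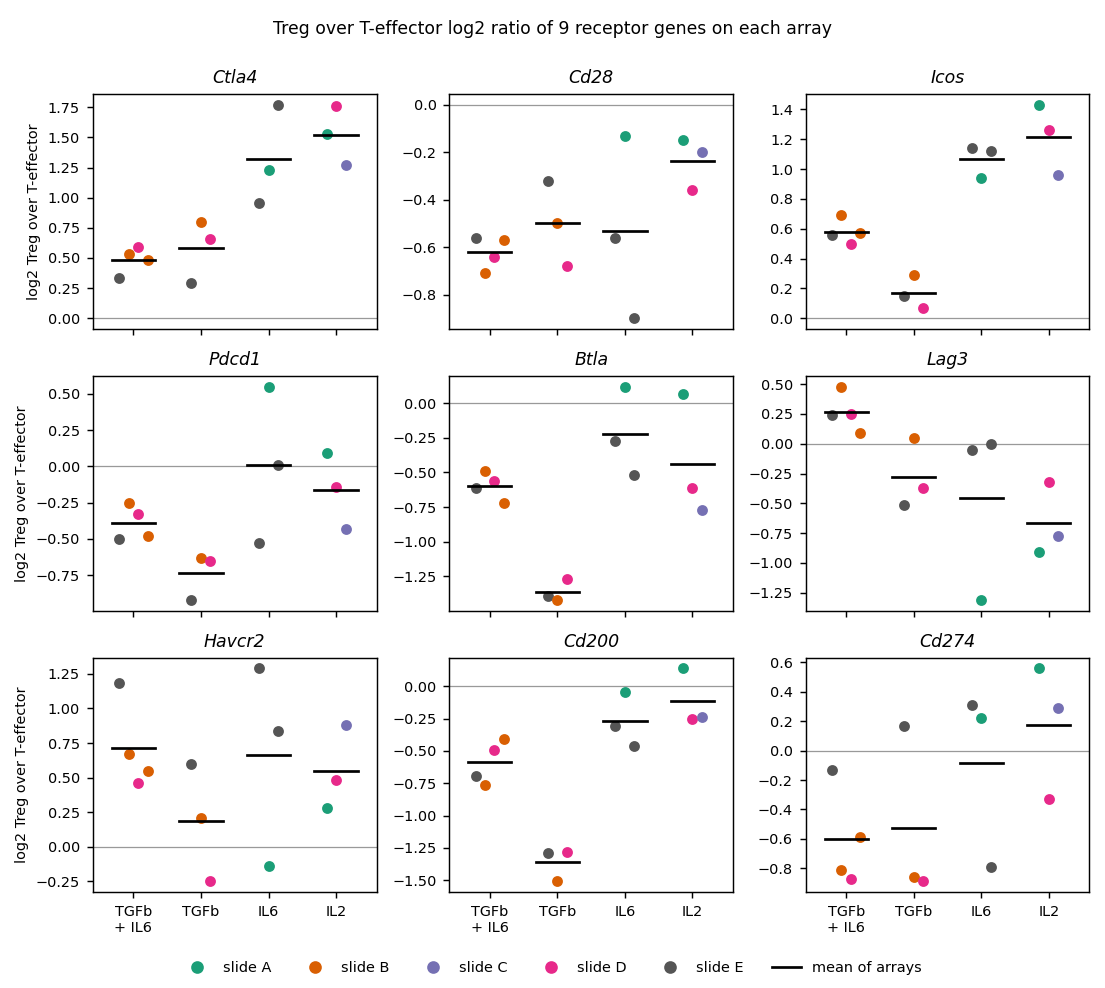
Log2 Treg over T-effector ratio (y axis) of the 9 genes on each of the 13 arrays, grouped by condition and coloured by slide, with a black line at the mean of the arrays. Ctla4 points lie above 0 on 13 of 13 arrays and Cd28 points below 0 on 13 of 13, and the TGFb points of Btla and Cd200 form a separate low group.

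Ctla4, the inhibitory member that competes with CD28, was the gene of this set most often higher in Treg. Its log2 ratio was 0.33, 0.53, 0.59 and 0.48 on the TGFb with IL6 arrays and 0.29, 0.80 and 0.66 on the TGFb arrays. It was 0.96, 1.23 and 1.77 on the IL6 arrays and 1.53, 1.76 and 1.27 on the IL2 arrays. Every array was positive, and no array with TGFb reached the lowest array without it. The fitted ratio was 0.48 ± 0.12 (SE, adjusted p = 0.0355) with TGFb and IL6, 0.62 ± 0.14 (adjusted p = 0.0225) with TGFb, 1.36 ± 0.14 (adjusted p = 0.000319) with IL6 and 1.49 ± 0.14 (adjusted p = 0.000149) with IL2, that is 1.40-fold to 2.80-fold more signal in Treg. The ratio was lower by a log2 of -0.86 ± 0.20 with TGFb than with IL2 (adjusted p = 0.0304) and by -0.87 ± 0.18 with TGFb and IL6 than with IL6 (adjusted p = 0.0295), and under median centring they were 0.02 and -0.06, beside all-gene medians of 0.43 and 0.32. These differences ended without any 1 of 5 and of 6 arrays (adjusted p = 0.0544 to 0.172 and 0.0603 to 0.136), and the second was -0.79 (adjusted p = 0.0589) without IL6 arrays 1 and 3. The ratio with IL2 passed in 26 of 26 settings, and the ratio with IL6 in all but median centring (0.50, adjusted p = 0.0924), also without IL6 arrays 1 and 3 (1.27, adjusted p = 0.00764). For TGFb with IL6 the call ended without any 1 of the 4 arrays of that condition or without TGFb array 3 (log2 0.43 to 0.52, adjusted p = 0.0548 to 0.159) and with slide as a block (0.43, adjusted p = 0.103). The TGFb call ended without TGFb array 2 or 3 (0.48 and 0.67, adjusted p = 0.133 and 0.176). Both calls also ended with normexp on all spots, under median centring and without slide B, and the TGFb with IL6 call with no dye term. Over 26 settings the TGFb call passed in 21 (0.37 to 0.81) and the TGFb with IL6 call in 16 (0.43 to 0.56).

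The Ctla4 signal itself moved in both sample types. In T-effector channels the normalized log2 signal was 9.33, 9.18, 9.05 and 9.34 with TGFb and IL6, 8.74, 8.29 and 8.35 with TGFb, 8.93, 8.55 and 8.57 with IL6 and 8.01, 7.88 and 7.83 with IL2. The IL2 arrays were the lowest and the TGFb with IL6 arrays the highest, without overlap, and the TGFb and IL6 arrays overlapped each other. In Treg channels it averaged 9.71 ± 0.08 with TGFb and IL6, 9.04 ± 0.04 with TGFb, 10.01 ± 0.30 with IL6 and 9.43 ± 0.29 with IL2 (SD, n = 4, 3, 3 and 3), with TGFb lowest and no overlap with IL2 above it. With TGFb and IL6 against TGFb, Ctla4 rose by a log2 of 0.65 ± 0.15 in Treg (adjusted p = 0.0115; 0.59 and adjusted p = 0.0892 without TGFb array 3) and 0.79 ± 0.15 in T-effector samples (adjusted p = 0.00192). With IL6 against IL2 the T-effector change was 0.74 ± 0.16 (adjusted p = 0.0318), a call that ended with slide as a block (0.51, adjusted p = 0.113), without IL6 arrays 1 and 3 (0.63, adjusted p = 0.584) and without any 1 of 7 arrays (adjusted p = 0.0553 to 0.209). For TGFb with IL6 against IL6, Ctla4 rose by 0.56 ± 0.15 in T-effector samples (adjusted p = 0.0205), not past the threshold without IL6 arrays 1 and 3 (0.69, adjusted p = 0.0706) nor without TGFb with IL6 array 1 or 4 or IL6 array 2 or 3 alone (0.47 to 0.54, adjusted p = 0.0603 to 0.11). The TGFb against IL2 differences were -0.35 ± 0.16 in Treg (adjusted p = 0.255; -0.57 and adjusted p = 0.0119 with slide as a block) and 0.52 ± 0.16 in T-effector samples (adjusted p = 0.084).

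**Figure D2:**
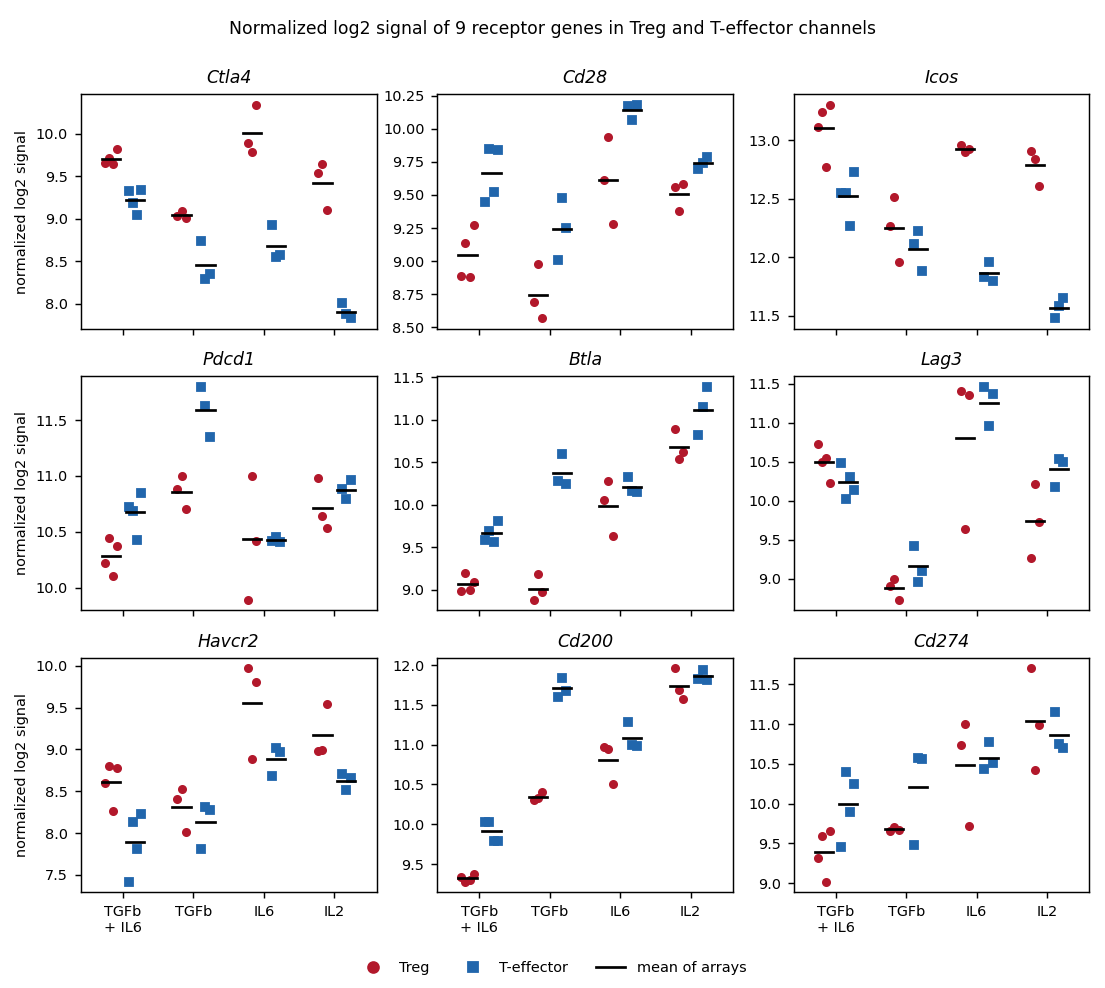
Normalized log2 signal (y axis) of the 9 genes in Treg channels (circles) and T-effector channels (squares) by condition, with a black line at the mean of the arrays. Cd200 falls to between 9.28 and 10.03 in both sample types with TGFb and IL6, and with TGFb its Treg points lie more than a log2 unit below its T-effector points.

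Icos, a costimulatory receptor induced on activated T cells, was higher in Treg in each condition but TGFb. Its log2 ratio was 0.56, 0.69, 0.50 and 0.57 with TGFb and IL6, and 0.15, 0.29 and 0.07 with TGFb. It was 1.14, 0.94 and 1.12 with IL6 and 1.43, 1.26 and 0.96 with IL2. The TGFb arrays lay below all others, the TGFb with IL6 arrays came next, and the IL6 and IL2 arrays overlapped. The fitted ratio was 0.58 ± 0.08 with TGFb and IL6 (adjusted p = 0.00165), 0.15 ± 0.09 with TGFb (adjusted p = 0.423), 1.05 ± 0.09 with IL6 (adjusted p = 9.62e-05; -0.10 under median centring, where the median of all genes was -0.32) and 1.24 ± 0.09 with IL2 (adjusted p = 2.65e-05; 0.21 and adjusted p = 0.499 under median centring). Without IL6 arrays 1 and 3 the ratio with IL6 was 0.85 (adjusted p = 0.0113). Between conditions the ratio was lower by -1.09 ± 0.13 with TGFb than with IL2 (adjusted p = 0.00179; 0.08 under median centring, beside 0.43 for all genes), and within slide D, which held both, by -1.19.

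The signals of Icos moved in opposite directions in the sample types when TGFb was added to IL2. Icos with TGFb against IL2 fell by 0.56 ± 0.14 in Treg (adjusted p = 0.0131) and rose by 0.52 ± 0.14 in T-effector samples (adjusted p = 0.033). Leaving out 1 array ended the first call for 4 arrays (IL2 arrays 1 and 2 and TGFb arrays 1 and 3, adjusted p = 0.0525 to 0.125) and the second for 7 (adjusted p = 0.0504 to 0.17). When IL6 joined TGFb, Icos rose by 0.87 ± 0.13 in Treg (12.77 to 13.30 on the arrays, against 11.96 to 12.51 with TGFb; adjusted p = 0.000129), a call that held in 26 of 26 settings. The T-effector rise was 0.44 ± 0.13 (adjusted p = 0.0422) and ended without any 1 of 8 arrays (0.33 to 0.47, adjusted p = 0.0579 to 0.266). For TGFb with IL6 against IL6, Icos rose by 0.65 ± 0.13 in T-effector samples (adjusted p = 0.00181; 0.52 and adjusted p = 0.179 without IL6 arrays 1 and 3). A second Icos probe (chr1:61249192-61249251, mm7) gave a smaller contrast than the tested one (chr1:61251160-61251219, mm7). Its ratio was 0.37 ± 0.09 with TGFb (adjusted p = 0.0409 over all probes) and 0.66 ± 0.09 with IL2 (adjusted p = 0.00202). Its Treg difference of TGFb against IL2 was 0.01 ± 0.10, so the fall of Icos in Treg was seen by 1 of 2 probes. For TGFb against IL2 this probe gave a T-effector difference of 0.30 ± 0.10 (adjusted p = 0.125). Its ratio difference was -0.29 ± 0.13 (adjusted p = 0.214), so these calls too came from 1 of 2 probes.

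Cd28, the founding costimulatory receptor, was lower in Treg than in T-effector samples on 13 of 13 arrays. The log2 ratio was -0.56, -0.71, -0.64 and -0.57 with TGFb and IL6, and -0.32, -0.50 and -0.68 with TGFb. It was -0.56, -0.13 and -0.90 with IL6 and -0.15, -0.36 and -0.20 with IL2. The 3 IL6 arrays spanned the whole range of the 13 arrays, and the IL2 arrays overlapped both the IL6 and the TGFb arrays. The fitted ratio was -0.62 ± 0.09 with TGFb and IL6 (1.54-fold lower, adjusted p = 0.00352), -0.53 ± 0.11 with TGFb (adjusted p = 0.0158), -0.56 ± 0.11 with IL6 (adjusted p = 0.0155) and -0.20 ± 0.11 with IL2 (adjusted p = 0.254). The TGFb call ended without any 1 of its 3 arrays (-0.50 to -0.59, adjusted p = 0.0521 to 0.205), and the IL6 call ended without IL6 array 3 (-0.40, adjusted p = 0.206) and without IL6 arrays 1 and 3 (-0.18, adjusted p = 0.547). The tests of the difference between conditions did not pass, with a log2 of -0.33 ± 0.16 for TGFb against IL2 (adjusted p = 0.234) and -0.36 ± 0.16 for IL6 against IL2 (unadjusted p = 0.044, adjusted p = 1).

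Within Treg channels Cd28 was lower with TGFb. Its signal was 8.69, 8.98 and 8.57 with TGFb, against 9.56, 9.38 and 9.58 with IL2, with no overlap. The difference of -0.79 ± 0.15 (1.73-fold lower, adjusted p = 0.0017) passed in 25 of 25 settings. For TGFb with IL6 against IL6, Cd28 fell by 0.55 ± 0.14 in Treg (adjusted p = 0.0164) and by 0.49 ± 0.14 in T-effector samples (adjusted p = 0.0301). Without IL6 arrays 1 and 3 these were -0.87 (adjusted p = 0.00779) and -0.43 (adjusted p = 0.259). The Treg call ended without TGFb with IL6 array 1 or IL6 array 2 (-0.48 and -0.40, adjusted p = 0.0732 and 0.0973), and the T-effector call without any 1 of 4 arrays (adjusted p = 0.0762 to 0.114) and with the spatial trend removed (-0.43, adjusted p = 0.0514). A second Cd28 probe gave a ratio of -0.62 ± 0.14 with TGFb and IL6 (adjusted p = 0.0264 over all probes). Its ratios of -0.42 ± 0.17 with TGFb (adjusted p = 0.184) and -0.63 ± 0.17 with IL6 (adjusted p = 0.0506) did not pass. Nor did its difference of -0.63 ± 0.20 for TGFb against IL2 in Treg (adjusted p = 0.0674). For TGFb with IL6 against IL6 it gave -0.48 ± 0.19 in Treg and -0.49 ± 0.19 in T-effector samples (adjusted p = 0.136 and 0.113).

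The Cd28 probe (chr1:61023768-61023827, mm7) was printed on 10 spots between rows 47 and 400 of 532, of which 9 or 10 were usable on each array, and they gauge the error within an array. On slides A and B the log2 ratios of these spots had an SD of 0.03 to 0.09. On slide D it was 0.11 to 0.21, with a ratio of -0.69 at the lowest row and -0.07 at the highest on IL2 array 2, and on slide C it was 0.13. On slide E the SD was 0.22 to 0.45, and on TGFb array 1 the ratio was 0.35 at the lowest row and -0.94 at the highest. After medians of blocks of spots were subtracted, the SD was 0.04 to 0.08 on all 13 arrays. The other 8 members had 1 spot each, so a drift moved them by where they were printed. Removing it moved Cd274, at row 47, by up to 0.94 and Havcr2, at row 102, by up to 0.59 on slide E, and by up to 0.52 and 0.30 on the other slides. Ctla4, at row 417, moved by up to 0.54 on slide E and 0.22 elsewhere. Its IL6 arrays then read 1.22, 1.12 and 1.23, against 0.96, 1.23 and 1.77 before. On slide E Pdcd1 moved by up to 0.35 and Lag3 by up to 0.34. Btla moved by at most 0.08 on slide E and 0.09 elsewhere.

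**Figure D3:**
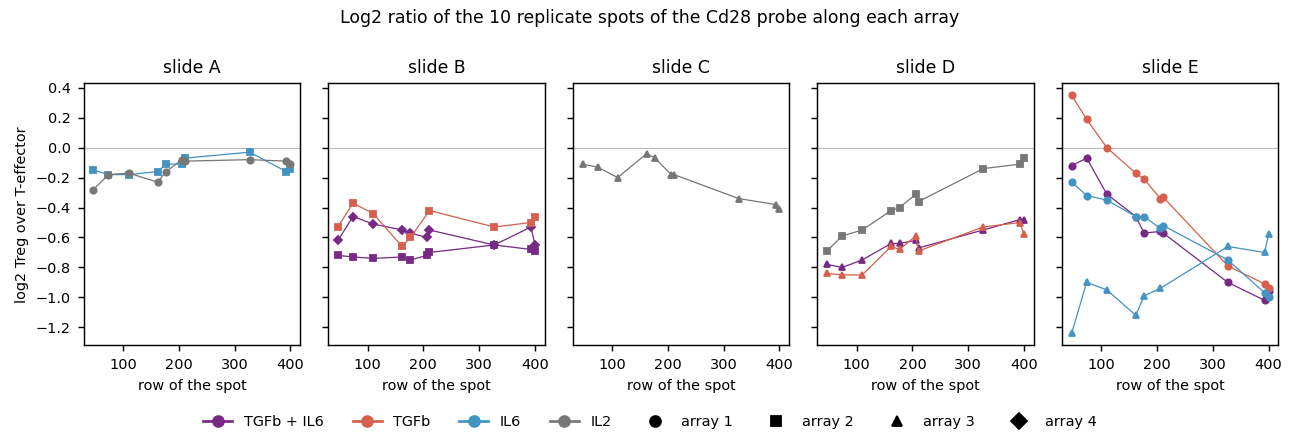
Log2 Treg over T-effector ratio (y axis) of the 10 replicate spots of the tested Cd28 probe against the row of the spot on the array (x axis), with a panel for each slide, colours for conditions and symbols for array numbers. The lines are nearly level on slides A and B, and on slide E they run over 0.66 to 1.29 log2 units between the lowest and the highest spot.

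Pdcd1, which encodes the inhibitory receptor PD-1, was highest in T-effector samples given TGFb. Its T-effector signal was 10.72, 10.69, 10.43 and 10.85 with TGFb and IL6, 11.80, 11.63 and 11.35 with TGFb, 10.42, 10.45 and 10.41 with IL6 and 10.88, 10.79 and 10.96 with IL2. The TGFb arrays stood above all others. In Treg channels the range was 10.10 to 10.44 with TGFb and IL6, 10.70 to 11.00 with TGFb, 9.89 to 11.00 with IL6 and 10.53 to 10.98 with IL2, and the TGFb and IL2 arrays overlapped. Treg samples had less Pdcd1 with TGFb, by a log2 ratio of -0.92, -0.63 and -0.65 on the arrays and -0.75 ± 0.17 in the fit (1.68-fold lower, adjusted p = 0.0233), a call that ended without any 1 of the 3 arrays (-0.64 to -0.84, adjusted p = 0.0707 to 0.15). The other 3 conditions did not pass (adjusted p = 0.142 to 0.998), and the ratio with IL6 was 0.00 in the fit, -0.99 under median centring, where the median of all genes was -0.32, and 0.51 (adjusted p = 0.151) without IL6 arrays 1 and 3.

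In T-effector samples Pdcd1 rose by 0.73 ± 0.21 with TGFb against IL2 (adjusted p = 0.0489). This call is weak, since it passed in 7 of 25 settings and ended without any 1 of 11 arrays (0.63 to 0.88, adjusted p = 0.0509 to 0.238). When IL6 joined TGFb, Pdcd1 fell by 0.93 ± 0.19 in T-effector samples (1.90-fold lower, adjusted p = 0.00343), with -1.08, -0.95 and -0.92 within slides E, B and D. The Treg difference was -0.57 ± 0.19 (adjusted p = 0.0994; -0.60 and adjusted p = 0.0131 with slide as a block). Whether Treg and T-effector samples differed in this response was tested through the ratio, which differed by 0.36 ± 0.22 (adjusted p = 1). The ratio difference of TGFb with IL6 against IL6 was -0.39 ± 0.22 (adjusted p = 0.325), and -0.90 (adjusted p = 0.0262) without IL6 arrays 1 and 3.

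Btla, an inhibitory receptor that binds HVEM (Tnfrsf14), and Cd200, a surface ligand of the inhibitory receptor CD200R, behaved alike in the ratio. For Btla (probe at chr16:45029531-45029590, mm7) the log2 ratio was -0.61, -0.49, -0.56 and -0.72 with TGFb and IL6, -1.39, -1.42 and -1.27 with TGFb, -0.27, 0.12 and -0.52 with IL6 and 0.07, -0.61 and -0.77 with IL2. For Cd200 (probe at chr16:45159843-45159902, mm7) it was -0.69, -0.76, -0.49 and -0.41 with TGFb and IL6, -1.29, -1.51 and -1.28 with TGFb, -0.31, -0.04 and -0.46 with IL6 and 0.14, -0.25 and -0.24 with IL2. For both genes the 3 TGFb arrays lay below the other 10 without overlap. The fitted Btla ratio was -0.60 ± 0.11 with TGFb and IL6 (adjusted p = 0.00984) and -1.41 ± 0.13 with TGFb (2.65-fold lower, adjusted p = 9.78e-05). The Cd200 ratio was -0.59 ± 0.10 with TGFb and IL6 (adjusted p = 0.00528) and -1.37 ± 0.11 with TGFb (2.58-fold lower, adjusted p = 5.09e-05). Both TGFb calls held in 26 of 26 settings. The Btla call with TGFb and IL6 ended without array 1 or 2 of that condition (-0.54 and -0.59, adjusted p = 0.0886 and 0.0548), and the Cd200 call ended without array 1 (-0.54, adjusted p = 0.0542). With IL6 and with IL2 neither gene passed (-0.11 to -0.39, adjusted p = 0.0728 to 0.554), though Btla with IL2 did with slide as a block (-0.45, adjusted p = 0.0298). Without IL6 arrays 1 and 3 the ratios with IL6 were 0.01 for Btla (adjusted p = 0.988) and -0.02 for Cd200 (adjusted p = 0.969).

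**Figure D4:**
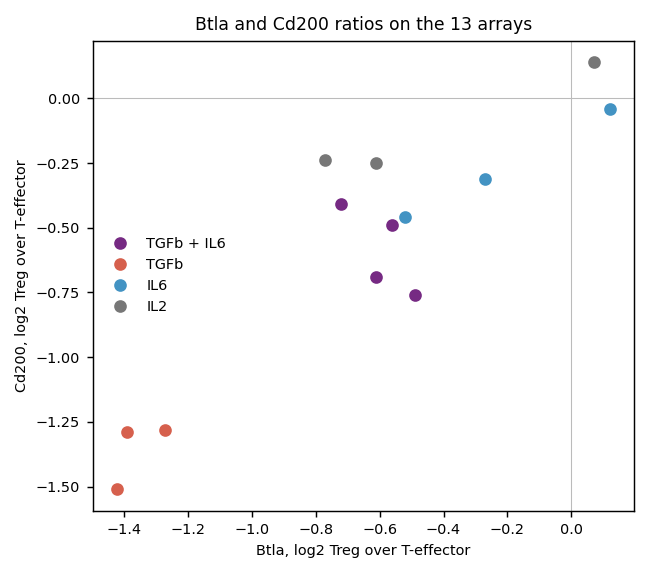
Log2 Treg over T-effector ratio of Cd200 (y axis) against that of Btla (x axis) on the 13 arrays, coloured by condition. The 3 TGFb arrays sit apart at the lower left, from -1.27 to -1.51 on either axis.

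The ratio of both genes was lower with TGFb than with IL2, by -1.01 ± 0.19 for Btla (adjusted p = 0.0126) and -1.25 ± 0.16 for Cd200 (adjusted p = 0.00276), and under median centring by 0.12 and -0.09 beside an all-gene median of 0.43. Without IL2 array 1 the Btla difference was -0.75 (adjusted p = 0.0608). Both ratios were nearer 0 with TGFb and IL6 than with TGFb, by 0.81 ± 0.17 for Btla (adjusted p = 0.114) and 0.78 ± 0.15 for Cd200 (adjusted p = 0.0673). Neither passed in this fit, and both passed with slide as a block (0.81, adjusted p = 0.0123; 0.78, adjusted p = 0.0131). With the 3 numbered pairs of these conditions as a replicate block, Btla passed (0.85, adjusted p = 0.0431) and Cd200 did not (0.81, adjusted p = 0.0532). Within slides D, E and B the differences were 0.71, 0.78 and 0.93 for Btla and 0.80, 0.60 and 0.76 for Cd200.

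The signals show which sample type moved. Cd200 in T-effector channels was 10.03, 10.03, 9.79 and 9.79 with TGFb and IL6, 11.60, 11.84 and 11.68 with TGFb, 11.29, 10.99 and 10.98 with IL6 and 11.83, 11.94 and 11.81 with IL2. In Treg channels it was 9.34, 9.28, 9.30 and 9.38 with TGFb and IL6, 10.31, 10.33 and 10.40 with TGFb, 10.97, 10.95 and 10.51 with IL6 and 11.96, 11.69 and 11.57 with IL2. The 4 conditions did not overlap in Treg channels, and in T-effector channels TGFb and IL2 overlapped with the other conditions below them. With TGFb against IL2, Cd200 fell by 1.40 ± 0.14 in Treg (2.64-fold lower, adjusted p = 3.52e-07) and differed by -0.15 ± 0.14 in T-effector samples (adjusted p = 0.613). With IL6 added to TGFb it fell by 1.02 ± 0.13 in Treg (adjusted p = 1.41e-05) and by 1.80 ± 0.13 in T-effector samples (3.48-fold lower, adjusted p = 3.85e-09), the largest difference of any member between conditions. With IL6 against IL2 it fell by 0.93 ± 0.14 in Treg (adjusted p = 0.000734) and by 0.77 ± 0.14 in T-effector samples (adjusted p = 0.00455), and without IL6 arrays 1 and 3 by 0.78 (adjusted p = 0.0322) and 0.88 (adjusted p = 0.0266). Both calls ended without slide E (adjusted p = 0.143 and 0.199). Cd200 with TGFb and IL6 against IL6 fell by 1.49 ± 0.13 in Treg (adjusted p = 3.47e-08) and 1.18 ± 0.13 in T-effector samples (adjusted p = 1.17e-06), and without IL6 arrays 1 and 3 by 1.64 (adjusted p = 8.33e-06) and 1.07 (adjusted p = 0.000888).

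Btla in T-effector channels was 9.59, 9.69, 9.56 and 9.81 with TGFb and IL6, 10.28, 10.60 and 10.24 with TGFb, 10.33, 10.16 and 10.15 with IL6 and 10.82, 11.15 and 11.39 with IL2. In Treg channels it was 8.98, 9.19, 9.0 and 9.09 with TGFb and IL6, 8.88, 9.18 and 8.97 with TGFb, 10.06, 10.28 and 9.63 with IL6 and 10.89, 10.54 and 10.62 with IL2. The IL2 arrays were highest in both sample types without overlap, and the 2 conditions with TGFb overlapped in Treg channels. With TGFb against IL2, Btla fell by 1.71 ± 0.16 in Treg (3.28-fold lower, adjusted p = 1.5e-07) and by 0.70 ± 0.16 in T-effector samples (adjusted p = 0.0107). The T-effector call ended without IL2 array 3 or TGFb array 1 or 3 (-0.55 to -0.68, adjusted p = 0.0607 to 0.121). With IL6 added to TGFb it differed by 0.08 ± 0.15 in Treg (adjusted p = 0.904) and fell by 0.73 ± 0.15 in T-effector samples (adjusted p = 0.00246), a call that ended with normexp on all spots, without slide B and without slide E (-0.55 to -0.76, adjusted p = 0.0593 to 0.0906). With IL6 against IL2 it fell by 0.74 ± 0.16 in Treg (adjusted p = 0.0242) and by 0.86 ± 0.16 in T-effector samples (adjusted p = 0.00593), and neither passed without IL6 arrays 1 and 3 (-0.48 and -0.89, adjusted p = 0.444 and 0.113). The Treg call also ended without any 1 of 5 arrays (-0.59 to -0.78, adjusted p = 0.0521 to 0.243) and the T-effector call without IL2 array 3 (-0.75, adjusted p = 0.0696). Btla with TGFb and IL6 against IL6 fell by 0.90 ± 0.15 in Treg (adjusted p = 0.000213; -1.15 and adjusted p = 0.00181 without IL6 arrays 1 and 3) and 0.57 ± 0.15 in T-effector samples (adjusted p = 0.0129; -0.49 and adjusted p = 0.0897 without IL6 array 1, -0.55 and adjusted p = 0.179 without IL6 arrays 1 and 3).

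B cells also express Btla and Cd200. The summed linear signal of 7 B cell markers in Treg channels was 603 to 792 with TGFb and IL6, 676 to 774 with TGFb, 819 to 1360 with IL6 and 1140 to 2080 with IL2. In T-effector channels it was 644 to 1630 with TGFb and IL6, 680 to 1440 with TGFb, 904 to 1080 with IL6 and 2110 to 2200 with IL2. In Treg channels both genes were highest with IL2, and the sum was lower with TGFb than with IL2 while the IL6 and IL2 arrays overlapped, whereas in T-effector channels the sum was lower with TGFb than with IL2 and Cd200 overlapped. With IL6 added to TGFb the ranges of the sum overlapped in both sample types. Of the 7 markers, 2 fell in Treg and 4 in T-effector samples with TGFb against IL2 (7.55% and 4.26% of all genes passed there), 0 passed between Treg and T-effector samples with TGFb (5.97%), and 2 were lower in Treg with IL2 (11.0%). Of the defining markers, Cd79a passed the background limit in 3 Treg channels and 5 T-effector channels, and Pax5 in 1 and 4. Their part in the Btla and Cd200 differences was not tested.

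Lag3, an inhibitory receptor for MHC class II, and Havcr2, which encodes TIM-3, passed no test between Treg and T-effector samples. The Lag3 log2 ratio (probe at chr6:124930943-124931239, mm7) was 0.24, 0.48, 0.25 and 0.09 with TGFb and IL6 and -0.51, 0.05 and -0.37 with TGFb. It was -0.05, -1.31 and 0.00 with IL6 and -0.91, -0.32 and -0.77 with IL2. IL6 array 2 lay apart from IL6 arrays 1 and 3, and without those 2 arrays the ratio with IL6 was -1.32 (adjusted p = 0.0129), against -0.43 ± 0.22 (adjusted p = 0.272) with all 3. The ratio difference of TGFb with IL6 against IL6 was then 1.59 (adjusted p = 0.00696), against 0.70 ± 0.29 (adjusted p = 0.187). The Treg signals of those arrays show the same split, 9.64 on array 2 and 11.41 and 11.35 on arrays 1 and 3, while the T-effector signals were 10.95, 11.46 and 11.36.

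Between conditions Lag3 moved further than most members. Its signal in Treg channels was 10.72, 10.50, 10.55 and 10.23 with TGFb and IL6, 8.91, 9.0 and 8.73 with TGFb, and 9.27, 10.21 and 9.73 with IL2. In T-effector channels it was 10.48, 10.02, 10.30 and 10.14 with TGFb and IL6, 9.42, 8.96 and 9.10 with TGFb, and 10.18, 10.53 and 10.50 with IL2. The TGFb arrays were the lowest in both sample types, without overlap. With IL6 added to TGFb, Lag3 rose by 1.61 ± 0.30 in Treg (3.05-fold higher, adjusted p = 0.00126), which passed in 26 of 26 settings, and by 1.08 ± 0.30 in T-effector samples (adjusted p = 0.0261), which ended without any 1 of 6 arrays (0.97 to 1.2, adjusted p = 0.0541 to 0.104). Lag3 with TGFb against IL2 fell by 1.26 ± 0.32 in T-effector samples (adjusted p = 0.0234), a call that ended without any 1 of the 6 arrays of these conditions (-1.16 to -1.38, adjusted p = 0.0584 to 0.115) and passed with slide as a block (-1.68, adjusted p = 4.62e-05). The Treg difference was -0.83 ± 0.32 (adjusted p = 0.132; -1.25 and adjusted p = 0.000502 with slide as a block). Lag3 with TGFb and IL6 against IL6 fell by 1.01 ± 0.30 in T-effector samples (adjusted p = 0.0294), which ended without any 1 of 5 arrays (adjusted p = 0.0547 to 0.0986) and without IL6 arrays 1 and 3 (-0.72, adjusted p = 0.177). CD8 T cells and NK cells also express Lag3. The summed signal of 6 of their markers in Treg channels was 4130 to 5030 with TGFb and IL6, 3140 to 4420 with TGFb, 1410 to 3600 with IL6 and 1380 to 3200 with IL2, with the value of 1410 on IL6 array 2, and in T-effector channels 2800 to 3910 over all conditions. Their part in the Lag3 differences was not tested.

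Havcr2 (probe at chr11:46437901-46437960, mm7) had a log2 ratio of 1.18, 0.67, 0.46 and 0.55 with TGFb and IL6, 0.60, 0.21 and -0.25 with TGFb, 1.29, -0.14 and 0.84 with IL6 and 0.28, 0.48 and 0.88 with IL2. The TGFb with IL6 and the IL2 arrays were all positive, and the conditions overlapped. The fitted ratio was 0.71 ± 0.21 with TGFb and IL6 (adjusted p = 0.0703), 0.64 ± 0.24 with IL6 (adjusted p = 0.151) and 0.57 ± 0.24 with IL2 (adjusted p = 0.153). With the spatial trend removed these were 0.65 (adjusted p = 0.0114), 0.68 (adjusted p = 0.0184) and 0.56 (adjusted p = 0.0305), and with slide as a block the ratio with IL2 was 0.68 (adjusted p = 0.0454). Without IL6 arrays 1 and 3 the ratio with IL6 changed sign, to -0.27 (adjusted p = 0.672). Havcr2 with TGFb and IL6 against IL6 fell by 0.93 ± 0.26 in Treg (adjusted p = 0.0271) and 1.01 ± 0.26 in T-effector samples (adjusted p = 0.0152). Without IL6 arrays 1 and 3 these were -0.21 (adjusted p = 0.833) and -1.19 (adjusted p = 0.0345). The Treg call also ended without TGFb with IL6 array 3, IL6 array 1 or IL6 array 3 (-0.74 to -0.83, adjusted p = 0.0834 to 0.205), and the T-effector call without TGFb with IL6 array 1 or IL6 array 3 (-0.84 and -1.02, adjusted p = 0.0677 and 0.0539). Another Havcr2 probe was well above background in 0 of 26 channels and was not tested.

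Cd274, the gene of the PD-1 ligand PD-L1, passed no test between Treg and T-effector samples, and its arrays differed within a condition. Its log2 ratio (probe at chr19:29087711-29087770, mm7) was -0.13, -0.81, -0.87 and -0.59 with TGFb and IL6, 0.17, -0.86 and -0.89 with TGFb, 0.31, 0.22 and -0.79 with IL6 and 0.56, -0.33 and 0.29 with IL2. With the spatial trend removed the same arrays read -0.66, -0.62, -0.65 and -0.56 with TGFb and IL6, -0.77, -0.71 and -0.68 with TGFb, -0.03, 0.37 and -0.06 with IL6 and 0.73, 0.19 and 0.22 with IL2. After that step the 7 arrays with TGFb lay below the 6 without it, whereas before it they overlapped. The fitted ratio was -0.60 ± 0.17 with TGFb and IL6 (adjusted p = 0.0685) and -0.62 ± 0.20 with TGFb (adjusted p = 0.107), and -0.62 ± 0.08 (adjusted p = 0.000629) and -0.74 ± 0.10 (adjusted p = 0.000501) with the trend removed. The ratio with IL2 was 0.27 ± 0.20 (adjusted p = 0.434), 0.41 (adjusted p = 0.0116) with the trend removed and -0.70 under median centring, where the median of all genes was -0.30. The ratio with IL6 was -0.18 ± 0.20 (adjusted p = 0.654), and 0.01 (adjusted p = 0.995) without IL6 arrays 1 and 3. The ratio difference of TGFb against IL2 was -0.89 ± 0.29 (adjusted p = 0.0941), and -1.15 ± 0.14 (adjusted p = 0.00074) with the trend removed.

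The Treg signal of Cd274 was 9.32, 9.59, 9.02 and 9.65 with TGFb and IL6, 9.66, 9.71 and 9.67 with TGFb, 10.74, 11.00 and 9.72 with IL6 and 11.70, 10.42 and 10.99 with IL2. No array with TGFb reached the lowest array without it. Cd274 with TGFb against IL2 fell by 1.45 ± 0.31 in Treg (2.74-fold lower, adjusted p = 0.00386), in 25 of 25 settings and by 0.75 within slide D, and differed by -0.57 ± 0.31 in T-effector samples (adjusted p = 0.354). Cd274 with TGFb and IL6 against IL6 fell by 1.05 ± 0.29 in Treg (adjusted p = 0.0222), which ended without any 1 of 4 arrays (-0.84 to -0.98, adjusted p = 0.0666 to 0.127) and was -1.50 (adjusted p = 0.0334) without IL6 arrays 1 and 3. Myeloid and dendritic cells carry PD-L1 too, and the summed signal of 7 of their markers in Treg channels was 620 to 713 with TGFb and IL6, 631 to 724 with TGFb, 606 to 990 with IL6 and 604 to 888 with IL2, with 0 of 7 past the threshold in any of the 16 comparisons. Their part in the Cd274 differences was not tested.

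The counts of members in each comparison of conditions follow from these genes. With TGFb against IL2, 5 of 9 passed in Treg, all lower (7.55% of all genes passed), and 4 in T-effector samples, Icos and Pdcd1 higher and Btla and Lag3 lower (4.26%). With IL6 against IL2, 2 passed in Treg (0.834%) and 3 in T-effector samples (0.784%). With TGFb and IL6 against TGFb, 4 passed in Treg (5.40%) and 6 in T-effector samples (7.21%), with Ctla4, Icos and Lag3 higher and Cd200 lower in both. With TGFb and IL6 against IL6, 5 passed in Treg (9.60%) and 7 in T-effector samples (10.9%). For the difference of the Treg to T-effector ratio, 4 passed with TGFb against IL2, all lower (5.87%), 1 with TGFb and IL6 against IL6 (3.99%) and 0 with TGFb and IL6 against TGFb (0.291%). With IL6 against IL2, 0 members and 0 genes passed in limma's fit (0%), while 1 member, Cd28, and 683 of all genes had an unadjusted p under 0.05, and 0 members passed in any alternative. Comparisons that share a condition share its arrays.

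**Figure D5:**
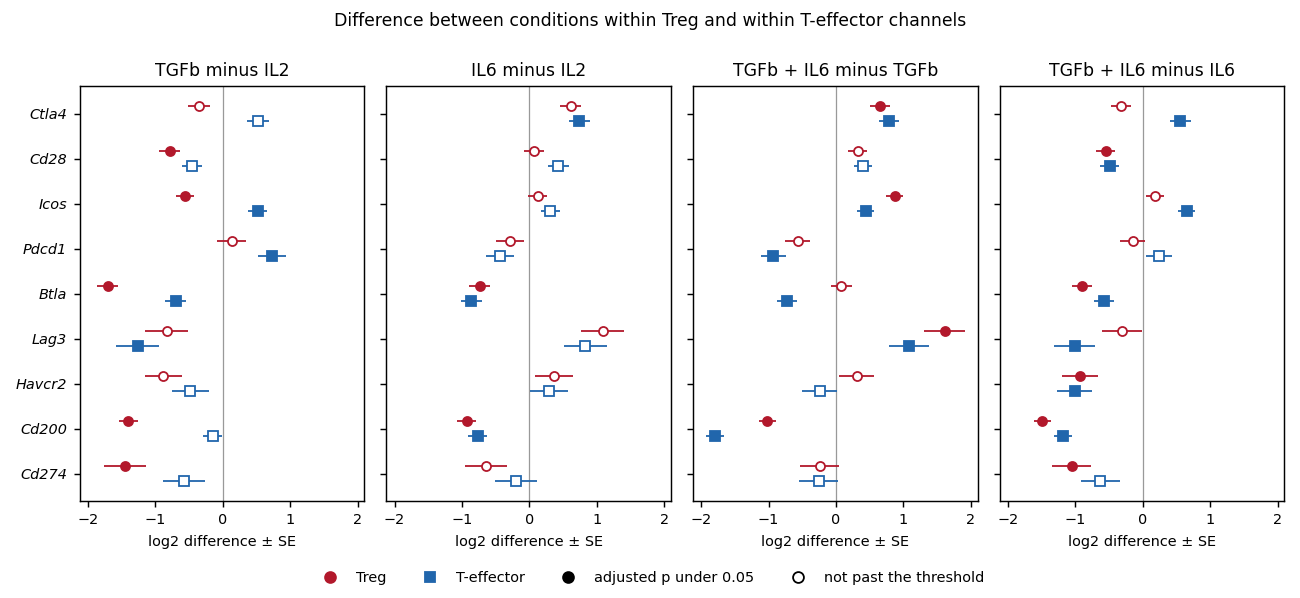
Log2 difference between conditions ± SE (x axis) for the 9 genes within Treg channels (circles) and T-effector channels (squares) in 4 comparisons, with filled symbols where the adjusted p is under 0.05. Btla, Cd200 and Cd274 lie furthest left for TGFb minus IL2 in Treg, and with IL6 added to TGFb Lag3 lies right and Cd200 left in both sample types.

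Genes around these receptors were read from 4 lists. Of 11 ligands and partners, 0 passed between Treg and T-effector samples with TGFb (5.97% of all genes), and with IL6 added to TGFb 3 rose and 2 fell in either sample type (5.40% of all genes in Treg and 7.21% in T-effector samples). Cd200r1, the receptor of CD200, rose by 0.96 ± 0.21 in Treg (adjusted p = 0.00699) and 1.41 ± 0.21 in T-effector samples (adjusted p = 0.000136), where Cd200 fell. Tnfrsf14, the ligand of BTLA, rose by 0.68 ± 0.18 (adjusted p = 0.0257) and 0.70 ± 0.18 (adjusted p = 0.0183) in Treg and T-effector samples. Pdcd1lg2, which encodes the second PD-1 ligand PD-L2, fell by 0.80 ± 0.14 in Treg (adjusted p = 0.000569) and 1.05 ± 0.14 in T-effector samples (adjusted p = 1.98e-05). The other 2 were Cd86, which rose in this comparison but was below the background limit throughout 1 group, and Cd80, a ligand shared by CD28 and CTLA-4, which fell by 0.39 ± 0.11 in Treg (adjusted p = 0.0383) and 0.50 ± 0.11 in T-effector samples (adjusted p = 0.00552). The list's median difference was -0.07 in Treg and 0.14 in T-effector samples, against -0.02 for all genes in both.

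Of 11 other T cell receptors with inhibitory or paired roles 8 were tested, and 2 passed in either sample type with IL6 added to TGFb and 3 in Treg with TGFb against IL2, beside the same shares of all genes (5.40%, 7.21% and 7.55%). With IL6 added to TGFb, Cd244a rose by 1.74 ± 0.28 in Treg (adjusted p = 0.000308) and 1.19 ± 0.28 in T-effector samples (adjusted p = 0.00921), and Cd226, a costimulatory receptor, fell by 0.43 ± 0.13 (adjusted p = 0.0486) and 0.56 ± 0.13 (adjusted p = 0.00643). The list's median was 0.06 in Treg and 0.02 in T-effector samples. With TGFb against IL2 in Treg, Cd96 rose by 0.99 ± 0.21 (adjusted p = 0.00409) and Lair1, a collagen receptor that inhibits, rose by 1.04 ± 0.22 (adjusted p = 0.00335), while Cd226 fell by 0.64 ± 0.14 (adjusted p = 0.00358). The list's median in that comparison was -0.18, against -0.01 for all genes.

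Of 14 signalling genes, all tested, 2 fell in both sample types with TGFb against IL2, where 7.55% of all genes passed in Treg and 4.26% in T-effector samples. Cblb, a ubiquitin ligase that limits T cell activation without CD28, fell by 1.01 ± 0.29 in Treg (adjusted p = 0.0345) and 1.32 ± 0.29 in T-effector samples (adjusted p = 0.00952). Prkcq, the kinase PKC-theta that acts below CD28, fell by 0.96 ± 0.22 (adjusted p = 0.00764) and 0.91 ± 0.22 (adjusted p = 0.0189). Sh2d1a, an adaptor of the SLAM receptors, rose by 1.65 ± 0.28 in T-effector samples (adjusted p = 0.000961) and its ratio with TGFb was -1.24 ± 0.22 (adjusted p = 0.00742). The list's median was 0.09 in Treg and -0.11 in T-effector samples. Of 12 regulators of checkpoint genes 11 were tested, and with TGFb against IL2 3 fell in Treg and 0 in T-effector samples (7.55% and 4.26% of all genes). They were Bcl6 (-2.15 ± 0.51, adjusted p = 0.00967), Batf (-1.84 ± 0.34, adjusted p = 0.000972) and Prdm1 (-1.11 ± 0.23, adjusted p = 0.00315), all transcription factors of activated T cells, and the list's median was 0.01 in Treg and -0.12 in T-effector samples.

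Across the 13 arrays the pattern of the ratio linked some members. After removal of the dye term, Btla and Cd200 correlated at a Pearson r of 0.95, Icos and Cd200 at 0.88, Ctla4 and Icos at 0.84, and Pdcd1 and Btla at 0.84, while Cd28 and Lag3 correlated at -0.83. These values are a description over arrays that share conditions and slides. Among 19765 genes, Cd200 had the pattern nearest to Btla and Btla the second nearest to Cd200 (0.95), after Fhl2 (0.96). The genes most like Ctla4 were Dennd1a (0.99), Plvap (0.98) and Rgcc (0.97). The nearest to Icos was Crip2 (0.96), to Pdcd1 Galnt3 (0.97), to Cd28 Ddx10 (0.94), to Lag3 Serpina3g (0.96), to Havcr2 Gm4890 (0.96) and to Cd274 Rpn2 (0.98).

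The authors' deposited table holds 1 value per probe and condition, on a scale that ran with the log2 Treg over T-effector ratio (slope 0.93 to 1.11, r 0.85 to 0.89 across probes), with column medians of -0.08 to -0.02. In the authors' deposited table Ctla4 was 0.57 with TGFb and IL6, 0.70 with TGFb, 1.40 with IL6 and 1.65 with IL2. The authors' deposited table gave Btla as -1.52 and Cd200 as -1.42 with TGFb, and Lag3 as -0.91 with IL6, where the fit above gave -0.43.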

How the data were processed

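RNA of Treg and T-effector samples was hybridised in opposite dyes on 13 two-colour arrays of 45018 spots, 1639 of them controls. Per the file headers, the deposited spot intensities and local background intensities came from Agilent Feature Extraction 9.5.1.1, whose log ratio is a log10 of Cy5 over Cy3. A second file holds the authors' deposited value per probe and condition, which ran on a log2 scale when set against the arrays. The probe positions are those of build mm7, per the file headers.

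Background was corrected with normexp (offset 50), with parameters fitted without spots whose local background was marked as an outlier, since fitting on all spots moved the parameter of 12 of 26 channels by over 10. Loess followed within each array, and ratios were turned to Treg over T-effector by the dyes in the labels. Probes that 3 or more of the 26 channels read well above background and that were missing on at most 3 arrays were kept (28923 of 41174), and the brightest probe stood for each of 19901 genes. Probe names came from RefSeq by accession for 22951 probes, by symbol for 6659 and by synonym for 3109, and 8455 kept the array's name. Limma 3.58.1 (R 4.3.3) fitted ratios with 4 condition means and a dye term (8 residual degrees of freedom), and single channels after Aquantile scaling with 17 residual degrees of freedom and a correlation of 0.45 between the channels of a spot. Adjusted p-values are Benjamini-Hochberg values over all genes, with a threshold of 0.05. The number of arrays limits the precision.

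The members and gene lists were chosen with earlier results of these data known. All 9 members are named, with up to 4 genes per comparison and list that changed most among those past the threshold, the genes Foxp3 and Il2ra, and the 3 genes most alike in pattern. Foxp3 checked the labels, and Il2ra had a log2 ratio of 0.70 with TGFb and IL6 (adjusted p = 0.0298) and 1.09 with TGFb (adjusted p = 0.00699), and did not pass with IL6 (0.46, adjusted p = 0.187) or IL2 (0.39, adjusted p = 0.214). TGFb with IL6 and TGFb arrays numbered 1 to 3 shared a slide and a dye orientation. Their deviations from the group means correlated at 0.54 to 0.76 in the ratio, 0.40 to 0.70 in Treg channels and 0.28 to 0.85 in T-effector channels. The replicate block used these numbers as pairs, and the main fit did not. A shared culture cannot be told apart from the shared slide and dye. Alternatives were Agilent's processed signals, no background subtraction, normexp on all spots, median centring (quantile scaling for channels), other filters, removal of spatial trends (medians of 19 by 5 blocks of spots in 4 intensity classes), slide as a block, a replicate block, no dye term, every probe on its own, the authors' table, and arrays or slide B left out. Leaving out slide E, and leaving out IL6 arrays 1 and 3, were chosen after seeing the data.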

Additional observations from a re-analysis of the deposited data

Results flagged for a closer look

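The Treg to T-effector ratio of 4 members differed between conditions by a test of the difference itself. With TGFb against IL2 the log2 difference was -0.86 for Ctla4, -1.09 for Icos, -1.01 for Btla and -1.25 for Cd200. The second Icos probe gave -0.29 ± 0.13 (adjusted p = 0.214 over all probes) and did not pass. With TGFb and IL6 against IL6 it was -0.87 for Ctla4. A check for a single array apart from the other 3 was run only on the condition with 4 arrays, TGFb with IL6. It flagged 0 of 27 sets of values, which were the ratio, Treg signal and T-effector signal of the 9 genes. The conditions with 3 arrays were not checked.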

How the results depend on the processing

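Of 144 member results 56 passed, 27 whichever array was left out, while 0% to 11.0% of all genes passed in each comparison. Counts of members that moved by over 1.5 times follow. Median centring gave 2 for the ratio with TGFb, 1 with TGFb and IL6, 6 with IL6, 7 with IL2, and 2 each for the ratio differences TGFb against IL2 and TGFb with IL6 against IL6, where 2.43%, 1.35%, 45.3%, 48.8%, 42.2% and 30.7% of all genes passed. This setting moved the all-gene median to -0.32 with IL6, -0.30 with IL2, and 0.43 and 0.32 for these differences, and beside these shifts it turned the signs of the ratios of Icos (-0.10) and Pdcd1 (-0.99) with IL6 and Cd274 (-0.70) with IL2, the TGFb against IL2 differences of Ctla4 (0.02), Cd28 (0.71), Icos (0.08) and Btla (0.12), and the Cd28 difference of TGFb with IL6 against IL6 (0.83). Normexp on all spots gave 2 with TGFb (1.33% of all genes) and 3 with TGFb and IL6 (3.82%). It gave 2 for the ratio difference TGFb against IL2 (0.372%) and 0 for TGFb with IL6 against IL6 (3.15%). In Treg it gave 1 for IL6 against IL2, where 0.407% to 2.53% of all genes passed over all settings. Removing spatial trends gave 8 with TGFb and IL6, 6 with IL2, and 7, 3 and 4 for the ratio differences TGFb against IL2, TGFb with IL6 against TGFb and TGFb with IL6 against IL6, where 18.2%, 28.1%, 20.9%, 1.48% and 18.0% of all genes passed. Agilent's processed signals gave 4 with IL2 (27.3% of all genes). They gave 1 and 3 for TGFb with IL6 against TGFb and against IL6 in the ratio (0.563% and 16.7%). Slide as a block gave 4 with IL2 (11.2%), 2 and 2 for the same pair (0.734% and 11.4%). It gave 8 for TGFb against IL2 in Treg (4.79% to 11.1% over all settings). The replicate block gave 1 for the ratio difference TGFb with IL6 against TGFb (0.246%), and moved the counts of 4 in Treg and 6 in T-effector samples by 0.

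Without slide B the counts were 2 with TGFb (2.18% of all genes) and 0 with TGFb and IL6 (0.784%). For the ratio differences they were 2 for TGFb against IL2 (1.16%) and 0 for TGFb with IL6 against IL6 (0.0854%). In T-effector samples they were 2 for TGFb against IL2 (2.12% to 10.3% over all settings) and 1 for TGFb with IL6 against TGFb (2.93%). Without slide E the count with IL2 was 4 (19.8% of all genes). For TGFb against IL2 in T-effector samples it was 1, where 2.12% to 10.3% of all genes passed over all settings. This setting left 1 IL6 array, so counts of comparisons with IL6 are not set out here. Leaving out IL6 arrays 1 and 3 also left 1 IL6 array, so the counts of that setting are not set out either. The cause was not tested, but slides B and E held 3 and 4 arrays, so fewer arrays entered these fits. The share of all genes moved with the settings as well, so a moved count is not read as particular to the members.

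With 1 array left out, the ratio counts ranged from 2 to 5 with TGFb, 2 to 7 with TGFb and IL6, 2 to 4 with IL6 and 2 to 5 with IL2. The share of all genes ranged from 1.01% to 8.09%, 1.41% to 10%, 0.839% to 7.77% and 2.6% to 15.5% in these conditions. The ratio differences ranged from 2 to 5 for TGFb against IL2, 0 for IL6 against IL2, 0 to 1 for TGFb with IL6 against TGFb and 0 to 2 for TGFb with IL6 against IL6. Beside them, 0.407% to 9.98%, 0% to 0.452%, 0.0201% to 0.518% and 0.538% to 8.78% of all genes passed. In Treg they ranged from 4 to 7 for TGFb against IL2, 1 to 3 for IL6 against IL2 and 3 to 5 for TGFb with IL6 against TGFb and against IL6. In T-effector samples they ranged from 0 to 4 for TGFb against IL2, 1 to 4 for IL6 against IL2, 4 to 6 for TGFb with IL6 against TGFb and 3 to 7 against IL6. For the first 3 of these comparisons the share of all genes over all settings was 4.79% to 11.1%, 0.407% to 2.53% and 2.25% to 11.4% in Treg. In T-effector samples it was 2.12% to 10.3%, 0.387% to 1.2% and 2.93% to 14.2%. Of the member results under all settings, 3545 kept direction and side of the threshold, 205 lost and 108 gained the call. Of all genes, the share past the threshold ranged from 2.02% to 48.8% for the ratio with IL2 and from 0.372% to 42.2% for the ratio difference TGFb against IL2. The 13 arrays limit what can pass, and all tested member probes were well above background.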
